A study of Mus musculus with 6 samples.

Results

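The testis macrophage markers examined here were 10 genes chosen by name as labels of resident and inflammatory macrophages (Csf1r, Mrc1, Lyz2, Cd68, Emr1, Cd163, Itgam, Aif1, Cd14 and Adgre4), of the 26743 genes in the deposited count table. A row with the exact symbol was found for 9 of the 10, and all 9 were among the 16924 genes abundant enough to be tested. Adgre4 had no row under that name. Its older name, Emr4, was listed with 1 to 4 counts in the wild-type mice and 1 to 15 counts in the mutants, too few to be tested. RNA-seq had been performed on whole testes of 3 wild-type (WT) and 3 Trf2-/- mice killed at post-natal day 21. Trf2 (listed as Tbpl1) encodes a TBP-related factor, the mutation is constitutive and so present in every cell of the animal including macrophages and testicular somatic cells, and the males are sterile because round spermatids fail to elongate. The age was chosen by the study so that the first wave of germ cells had just reached the round spermatid stage in both genotypes. A 129/SvPas breeding background is named where a tagged Trf2 line is described, and not for these samples in particular. The methods describe 3 independent biological replicates per genotype, each called a mouse here; whether any replicate pooled animals was not stated.

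Resident macrophages are the most numerous immune cells of the testis and lie in the interstitium, beside the Leydig cells, and on the surface of the seminiferous tubules. Their survival depends on the receptor Csf1r, which binds the growth factors Csf1 and Il34, and their identity depends on transcription factors such as PU.1 (Spi1) and Maf. They engulf dead cells and debris through scavenger and lectin receptors, digest them in lysosomes, and sense bacterial products through Cd14 and the Toll-like receptors. Some of the markers are shared: Itgam and Lyz2 are also made by monocytes and neutrophils, Cd14 by monocytes, and Csf1r by monocytes.

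Library totals ran from 21582123 to 29859347 counts in WT and from 15187062 to 24530489 in Trf2-/- mice, so that a level of 3 counts corresponded to 0.1045 to 0.1896 CPM, counts per 1000000 counts of the library, a limit that covers counting error only. Tbpl1 had 6119 to 8840 counts in WT and 882 to 1586 in the mutants, a log2 fold change of -2.27 with a standard error (SE) of 0.06 (edgeR quasi-likelihood test, adjusted p = 1.177e-06), so the 6 labels matched the genotype. Mitochondrial genes held 1.84% to 2.07% of the counts in WT and 2.17% to 2.55% in Trf2-/- mice, and the part this plays in the results was not tested. Trf2-/- mouse 1 stood apart from the other mutants in the macrophage markers, and the log2 fold change of each marker is given with and without that mouse. Other genes and lists are given without that mouse only where stated. Throughout, a gene passed the test when its adjusted p in edgeR was under 0.05, and CPM values are scaled by TMM normalization factors.

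All 9 measured markers had a higher mean in Trf2-/- than in WT testes, against 9293 of the 16924 genes tested, and their median log2 fold change was 0.567, beside 0.037 over all genes. Csf1r, Lyz2 and Emr1 rose, the other 6 did not pass the test, and only Lyz2 among the 9 rose at least 2-fold. The share of all tested genes called higher was 11.2%, that called lower 20.2%, and that called higher by at least 2-fold 0.609%. In 5 of the 9 (Csf1r, Lyz2, Cd68, Emr1 and Cd14) every mutant lay above every WT mouse, against 22.3% of all tested genes. Whole testis was sequenced, and CPM values are relative to the RNA of all its cells. More or fewer macrophages, more or less RNA per macrophage and a changed amount of RNA from other cells therefore cannot be told apart.

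The size of the difference varied from mutant to mutant. All 9 markers were highest in Trf2-/- mouse 1, in which the median marker lay 0.990 above the WT mean on the log2 scale. The same median was 0.366 in Trf2-/- mouse 2 and 0.232 in mouse 3, while the 3 WT mice lay between -0.099 and 0.141. Summed over the 9 genes, the level was 177.1, 151.6 and 158.4 CPM in WT mice 1 to 3 and 338.8, 203.6 and 171.9 CPM in Trf2-/- mice 1 to 3. The third mutant therefore fell inside the WT range, and the summed level, 162 ± 13.2 CPM in WT and 238 ± 88.6 CPM in Trf2-/- testes (SD, n = 3 each), gave p = 0.2 in a two-sided exact permutation test, for which 0.1 is the smallest p that 3 against 3 mice can give. Without Trf2-/- mouse 1 the median log2 fold change of the 9 markers was 0.282, Csf1r and Lyz2 still passed the test and Emr1 did not.

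**Figure D1:**
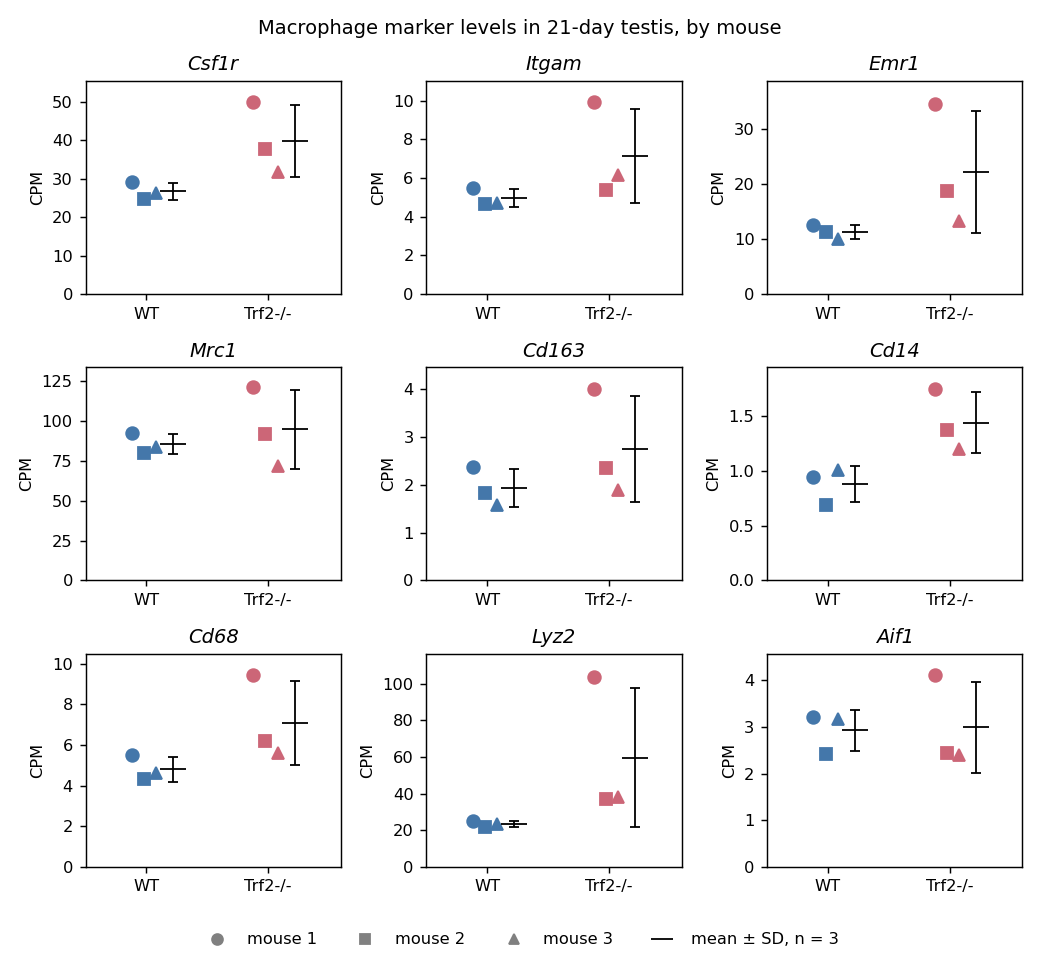
Level of each of the 9 markers in CPM (vertical axes, each starting at 0) for the 3 WT mice (blue) and the 3 Trf2-/- mice (red), with the marker shape giving the mouse number and black bars the mean ± SD. Trf2-/- mouse 1 (red circle) is the highest mouse in all 9 panels, and in the panels of Mrc1, Aif1, Cd163 and Itgam at least 1 other mutant lies within or below the WT range.

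Promoter sequence was taken from RefSeq (GRCm38.p6), which had a window of 250 bases before to 50 after the start for 6 of the 9 markers and none for Csf1r, Emr1 and Cd14. PU.1, the factor that drives the myeloid programme, recognises purine-rich boxes, so the windows were searched on both strands for GAGGAAG, which reads CTTCCTC on the other strand. The box, meaning this exact string, was present in 2 of the 6, Mrc1 and Itgam, and absent from Lyz2, Cd68, Cd163 and Aif1. The shorter string GAGGAA was not counted. Read on both strands, it also occurs before the start of Cd68 and Aif1, and outside the capitals in Mrc1 and Itgam. The exact string was present in 13.6% of all 32851 promoter windows of that length. A match of letters is a description and not a binding site. The 250 bases before the start are shown for the marker with the most counts (Mrc1), the other marker that holds the box (Itgam) and the marker with the greatest change (Lyz2), with the box in capitals.
Mrc1, chr2:14229164-14229413, plus strand: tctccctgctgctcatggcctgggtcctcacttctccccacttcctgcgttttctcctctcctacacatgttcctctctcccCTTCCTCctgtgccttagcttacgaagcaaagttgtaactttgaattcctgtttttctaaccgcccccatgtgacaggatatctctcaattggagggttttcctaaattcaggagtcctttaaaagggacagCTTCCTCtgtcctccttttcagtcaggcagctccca
Itgam, chr7:128062390-128062639, plus strand: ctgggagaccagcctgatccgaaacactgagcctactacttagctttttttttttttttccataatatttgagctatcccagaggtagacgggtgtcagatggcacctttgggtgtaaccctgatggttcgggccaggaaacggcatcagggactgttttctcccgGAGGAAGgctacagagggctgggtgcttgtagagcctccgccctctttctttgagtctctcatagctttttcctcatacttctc
Lyz2, chr10:117282273-117282522, minus strand: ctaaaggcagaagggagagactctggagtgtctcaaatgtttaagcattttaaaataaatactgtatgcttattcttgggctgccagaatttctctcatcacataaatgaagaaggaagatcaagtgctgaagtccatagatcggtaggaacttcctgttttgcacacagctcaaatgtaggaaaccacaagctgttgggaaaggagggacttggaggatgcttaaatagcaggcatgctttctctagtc
The boxes in Mrc1 began 168 and 36 bases before the start, both in the reverse orientation, and the one upstream of Itgam began 84 bases before it. The pair that holds the box, Mrc1 and Itgam, and the 4 without it each included genes with small and large differences: Mrc1 had a log2 fold change of 0.16 and Itgam of 0.54, against 0.05 for Aif1, 0.53 for Cd163, 0.57 for Cd68 and 1.36 for Lyz2.

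Csf1r, on chromosome 18, encodes the tyrosine kinase receptor for Csf1 and Il34 and is the marker on which macrophage survival itself depends. It was measured at 29.2, 24.6 and 26.2 CPM in the WT mice, from 546 to 838 counts, and at 50.0, 37.8 and 31.7 CPM across the Trf2-/- mice, from 502 to 1261 counts. The lowest mutant stood above the highest WT mouse, and the mutants were ordered mouse 1, 2, 3. Csf1r rose by a log2 fold change of 0.59 (SE 0.148) with an adjusted p of 0.01675 in edgeR. Without Trf2-/- mouse 1 the log2 fold change was 0.373 and the adjusted p 0.0403, and leaving out WT mouse 2 or WT mouse 3 took the adjusted p above the threshold, to 0.0710 at most, with log2 fold changes of 0.528 and 0.571. The Csf1r transcripts share 15.7% of their 50-base windows with Hmgxb3, a gene that overlaps Csf1r on the opposite strand. Hmgxb3 had 2347 to 3233 counts in WT and 1707 to 2407 in Trf2-/- mice (log2 fold change -0.15, edgeR adjusted p = 0.0642), and whether reads of the 2 genes were separated by strand is not given in the sources used here.

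The ligands and sister receptors of Csf1r were read from a list of 7 macrophage growth factors and receptors, of which 5 were tested. Csf1 was measured at 15.2 ± 1.06 CPM in WT and 19.5 ± 3.35 CPM in Trf2-/- testes (SD, n = 3 each). Each mutant lay above each WT mouse, but the difference (log2 fold change 0.366, SE 0.124) had an adjusted p of 0.051 in edgeR and did not pass. Il34, the second ligand, was at 1.45 ± 0.0758 CPM in WT and 1.22 ± 0.138 CPM in Trf2-/- testes, a log2 fold change of -0.226 with an adjusted p of 0.441 in edgeR. The list member that rose was Csf2rb, the common beta chain of the receptors for Csf2 and interleukins 3 and 5, with 20 to 52 counts in WT and 35 to 122 in the mutants (log2 fold change 1.05, edgeR adjusted p = 0.0488). That call was lost without Trf2-/- mouse 1 (log2 fold change 0.564, adjusted p 0.191) and without any 1 of the 3 WT mice. Csf2 was not analysed here.

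Of 9 lineage transcription factors, all tested, 8 had a higher mean in the mutants. Maf, which restrains the proliferation of mature macrophages, was at 17.5 ± 1.55 CPM in WT and 26.8 ± 5.88 CPM in Trf2-/- testes (SD, n = 3 each; log2 fold change 0.622, edgeR adjusted p = 0.0118). It still passed without Trf2-/- mouse 1 (log2 fold change 0.416, adjusted p 0.0249) and was lost without WT mouse 2 (log2 fold change 0.555, adjusted p 0.0547). Spi1, listed as Sfpi1 and encoding PU.1, had 42 to 57 counts in WT and 24 to 74 in the mutants, with a log2 fold change of 0.355 and an adjusted p of 0.292 in edgeR. Its log2 fold change was 0.178 without Trf2-/- mouse 1. Maf, which rose, is also made by cells other than macrophages.

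Itgam, on chromosome 7 (mm9 chr7:135206154-135271674), encodes the alpha chain of the complement receptor CD11b/CD18. It was at 5.47, 4.64 and 4.70 CPM across the WT mice, against 9.92, 5.36 and 6.13 CPM across the Trf2-/- mice. The second mutant fell within the WT range. The log2 fold change of 0.54 (SE 0.225) did not pass the test (edgeR adjusted p = 0.0987) and was 0.194 without Trf2-/- mouse 1. Itgb2 encodes the beta chain that pairs with it, and was at 3.69 ± 0.511 CPM in WT and 5.43 ± 2.29 CPM in the mutants (SD, n = 3 each; log2 fold change 0.576, edgeR adjusted p = 0.135), falling to a log2 fold change of 0.15 without Trf2-/- mouse 1. Among the 5 tested beta2 integrins and ligands, 4 had a higher mean in the mutants, and edgeR called 0 of the 5, with 0 under an unadjusted p of 0.05 and 0 called by DESeq2. The most abundant of them, Icam1, a ligand of the beta2 integrins, was at 6.63 CPM in WT and 7.07 CPM in the mutants.

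Emr1, on chromosome 17 (mm9 chr17:57498109-57622952), encodes F4/80, the adhesion receptor by which mouse tissue macrophages are commonly stained. The WT mice had 12.6, 11.2 and 10.1 CPM and the Trf2-/- mice 34.7, 18.8 and 13.2 CPM. All mutants were higher than all WT mice, but mouse 3 exceeded the highest WT mouse by a small margin. Emr1 rose by a log2 fold change of 0.99 (SE 0.296), or 1.98-fold, with an adjusted p of 0.0329 in edgeR. The call was lost without Trf2-/- mouse 1, where the log2 fold change was 0.498 and the adjusted p 0.067, and without any 1 of the WT mice, where the log2 fold change stayed between 0.913 and 1.07. It did not pass in DESeq2 (adjusted p 0.0741) or in a robust fit (adjusted p 0.0976). Cd97, the related EGF-TM7 receptor found on many leukocytes and on other cells, rose from 11.8 ± 0.885 to 15.3 ± 1.89 CPM (SD, n = 3 each; log2 fold change 0.377, edgeR adjusted p = 0.0346), and passed in 1 of the 6 fits that left out a mouse.

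Mrc1, on chromosome 2 (mm9 chr2:14151041-14253684), encodes the mannose receptor CD206, a lectin of tissue-resident macrophages that is also made by some endothelia. It had the most counts of the 9 markers, between 1136 and 3057 per mouse. Its level was 92.5, 80.1 and 83.9 CPM across the WT mice, against 121, 92.0 and 71.8 CPM across the Trf2-/- mice. The mutants thus spanned the WT range on both sides. The log2 fold change of 0.16 (SE 0.157) did not pass the test (edgeR adjusted p = 0.466), and without Trf2-/- mouse 1 it was -0.07. The 5 related lectins (the list led by Pla2r1 at 29.1 CPM in WT and 33.0 CPM in the mutants) had a lower mean in the mutants in 4 cases (median log2 fold change -0.103), with 0 called by edgeR, 0 under an unadjusted p of 0.05 and 0 called by DESeq2.

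Cd163, on chromosome 6 (mm9 chr6:124254669-124280545), encodes the receptor that takes up haemoglobin bound to haptoglobin. It was scarce, with 33 to 68 counts in WT and 30 to 101 in the mutants. Its level was 2.37, 1.84 and 1.58 CPM across the WT mice, against 4.01, 2.36 and 1.90 CPM in the mutants, with 2 of the mutants inside the WT range. The log2 fold change was 0.53 (SE 0.29), the adjusted p in edgeR 0.193, and the log2 fold change without Trf2-/- mouse 1 was 0.13. Of 6 tested genes for haemoglobin and iron handling, Hp (haptoglobin) rose, with 11, 32 and 15 counts across the WT mice, against 92, 87 and 15 in the mutants (log2 fold change 1.89, edgeR adjusted p = 0.0232). The third mutant lay within the WT range of Hp, and the call was lost without Trf2-/- mouse 1, where the log2 fold change was still 1.67 (adjusted p 0.0786), without Trf2-/- mouse 2, or without WT mouse 1 or 3. Fth1, the ferritin heavy chain, was the most abundant gene of that list at 144.5 CPM in WT and 150.4 CPM in the mutants.

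Cd14, on chromosome 18, encodes the co-receptor that passes lipopolysaccharide to Tlr4. It was the marker with the fewest counts, 18 to 27 in WT and 19 to 44 in the mutants. The WT mice had 0.941, 0.689 and 1.01 CPM and the Trf2-/- mice 1.75, 1.37 and 1.20 CPM. The groups did not overlap, and relative to its mean the SD among the mutants was the smallest of the 9 markers. The log2 fold change of 0.73 (SE 0.251) did not pass the test (edgeR adjusted p = 0.0529), and it was 0.554 without Trf2-/- mouse 1. Its signalling partners were read from a list of 12, all tested, of which 11 had a higher mean in the mutants and 1 rose. That gene was Irak2, a kinase downstream of the Toll-like receptors, at 4.33 ± 0.103 CPM in WT and 6.17 ± 0.364 CPM in Trf2-/- testes (SD, n = 3 each; log2 fold change 0.51, edgeR adjusted p = 0.0134). Irak2 did not follow the mouse-to-mouse pattern of the markers, kept its call without Trf2-/- mouse 1 (log2 fold change 0.547, adjusted p 0.0226) and lost it without WT mouse 2 (adjusted p 0.0547). Tlr4 itself was at 3.11 ± 0.354 CPM in WT and 4.33 ± 0.880 CPM in the mutants (log2 fold change 0.485, edgeR adjusted p = 0.0732). Its log2 fold change was 0.299 without Trf2-/- mouse 1. Ly96, which holds the lipid for Tlr4, was at 0.936 ± 0.191 CPM in WT and 0.981 ± 0.0933 CPM in the mutants (edgeR adjusted p = 0.808). Myd88, the adaptor with the highest level in the list, was at 28.3 CPM in WT and 26.4 CPM in the mutants.

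Cd68, on chromosome 11 (mm9 chr11:69477715-69479655), encodes a heavily glycosylated membrane protein of the macrophage lysosome. The WT mice had 5.51, 4.33 and 4.61 CPM and the Trf2-/- mice 9.44, 6.18 and 5.63 CPM. The groups did not overlap, with mutant 3 just above the highest WT mouse. The log2 fold change of 0.57 (SE 0.206) did not pass the test (edgeR adjusted p = 0.0654) and was 0.282 without Trf2-/- mouse 1. Cd68 was the marker whose 6 deviations lay closest to the mean of the 9.

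Of the 8 lysosomal membrane proteins and cathepsins listed beside it, 7 were tested, 5 rose and 1 fell. Lamp2, a structural protein of lysosomal membranes in most cells, was at 102 ± 5.61 CPM in WT and 127.5 ± 6.96 CPM in the mutants (SD, n = 3 each; log2 fold change 0.325, edgeR adjusted p = 0.00361), and passed in each of the 6 fits that left out a mouse. Ctsl, a cathepsin that Sertoli cells also make in quantity, rose from 533 ± 4.46 to 612 ± 20.9 CPM (log2 fold change 0.198, adjusted p 0.00873), a call lost without Trf2-/- mouse 1 at a log2 fold change of 0.157 (adjusted p 0.0738). Ctsz rose from 16.0 ± 0.341 to 21.5 ± 4.28 CPM (log2 fold change 0.433, adjusted p 0.0322), passed in 2 of the 6 fits, and was at 0.238 with an adjusted p of 0.065 without that mouse. Lamp1 fell, from 622 ± 25.4 to 557 ± 19.8 CPM (log2 fold change -0.161, adjusted p 0.0356), and passed in 1 of the 6 fits that left out a mouse. These genes are used by nearly every cell type. Ctss, a cathepsin that is largely restricted to antigen-presenting cells and is named here after its values were seen, had 303, 299 and 197 counts across the WT mice, against 902, 395 and 198 counts in the mutants, and rose by a log2 fold change of 1.07 (adjusted p 0.0364), which was 0.486 (adjusted p 0.0564) without Trf2-/- mouse 1. It passed in 2 of the 6 fits that left out a mouse.

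Lyz2, on chromosome 10 (mm9 chr10:116714390-116719377, minus strand), encodes the lysozyme of macrophages, monocytes and neutrophils. It was the marker that differed most. The WT mice had 726, 570 and 483 counts, or 25.3, 21.8 and 23.2 CPM, and the Trf2-/- mice 2610, 870 and 600 counts, or 103.6, 37.3 and 37.9 CPM. Mutants 2 and 3 were level with each other at 1.59 and 1.62 times the WT mean, whereas mutant 1 was at 4.42 times. Lyz2 rose by a log2 fold change of 1.36 (SE 0.359, edgeR adjusted p = 0.0203). Without Trf2-/- mouse 1 the log2 fold change was 0.667 and the adjusted p 0.00325, so that the call was kept at a smaller size and was no longer 2-fold. It was lost without any 1 of the WT mice, at log2 fold changes of 1.30 to 1.42 and an adjusted p of 0.0744 at most, and in a robust quasi-likelihood fit, at an adjusted p of 0.104. The neighbouring paralogue Lyz1, at chr10:116724852-116729924 on the same strand, shares 15.4% of the 50-base windows of Lyz2, and reads from those windows cannot be assigned to either gene. Lyz1 was counted 1 to 8 times in WT and 4 to 12 times in the mutants.

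Aif1, on chromosome 17 (mm9 chr17:35307936-35313013), encodes the actin-binding protein Iba1. It was at 3.21, 2.41 and 3.17 CPM across the WT mice, against 4.13, 2.44 and 2.40 CPM across the Trf2-/- mice. Outside the first mutant, no mutant exceeded the WT mean. The log2 fold change of 0.05 (SE 0.242, edgeR adjusted p = 0.888) was the smallest of the 9, and it was -0.282 without Trf2-/- mouse 1.

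**Figure D2:**
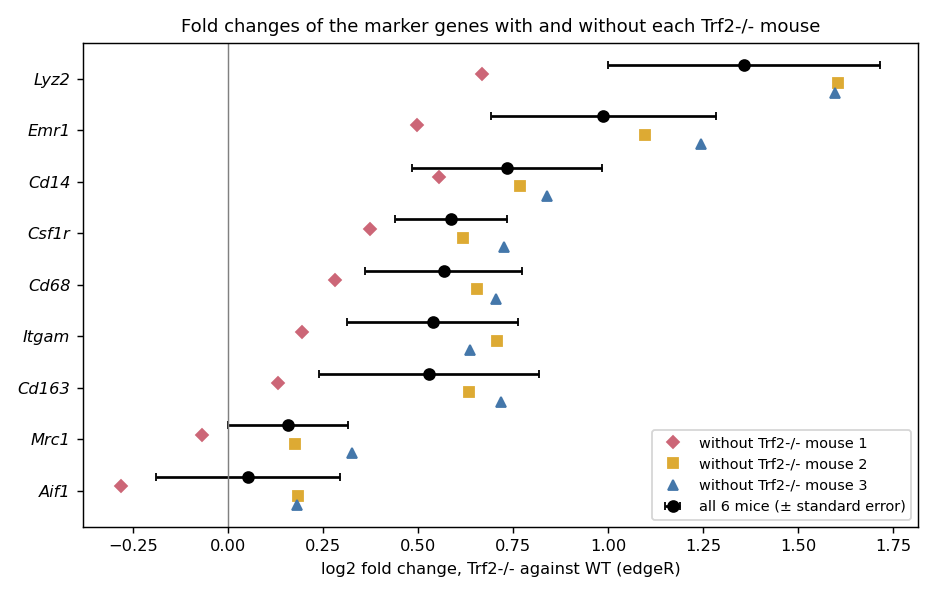
Log2 fold change of each marker, Trf2-/- against WT, from edgeR (horizontal axis) with all 6 mice (black, bars ± SE) and with 1 of the 3 Trf2-/- mice left out (colours). Leaving out Trf2-/- mouse 1 gives the lowest value for every marker, from -0.282 for Aif1 to 0.667 for Lyz2, and leaving out mouse 2 or 3 raises all 9.

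Compared per kilobase of gene model, the order of the markers in WT testes was Lyz2 (17.9 ± 1.33 CPM per kb), Mrc1 (14.4 ± 1.07), Csf1r (5.10 ± 0.445), Cd68 (3.83 ± 0.490), Emr1 (3.48 ± 0.392), Aif1 (2.42 ± 0.369), Itgam (0.774 ± 0.0729), Cd14 (0.559 ± 0.107) and Cd163 (0.430 ± 0.0893), each as mean CPM per kb ± SD over 3 mice. The ranges of Cd68 and Emr1 overlapped, with Cd68 the higher in 2 of the 3 mice. The ranges of Cd14 and Cd163 overlapped as well, but Cd14 was the higher within each of the 3 WT and each of the 3 Trf2-/- mice. In Trf2-/- testes Emr1 (6.85 ± 3.43 CPM per kb) stood before Cd68 (5.63 ± 1.64 CPM per kb), with ranges that overlapped in 4 of the 8 neighbouring pairs. Lyz2 and Mrc1 headed the order in both genotypes. Together the 9 genes took 0.0148% to 0.0170% of all counts in WT and 0.0179% to 0.0348% in Trf2-/- mice.

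The make-up of the marker signal was examined by dividing each marker by Csf1r within the same mouse. A change shared in proportion by all markers leaves this ratio as it was. Csf1r itself rose (log2 fold change 0.586), with every mutant above every WT mouse. A gene at the same CPM in every mouse would therefore also be lower relative to Csf1r in every mutant. Mrc1 and Aif1 had the smallest log2 fold changes of the 9 markers, 0.158 and 0.052. The share of all tested genes whose ratio to Csf1r did not overlap between the genotypes was not computed. Mrc1 counts stood to Csf1r counts at log2 ratios of 1.66, 1.70 and 1.68 across the WT mice, against 1.28, 1.28 and 1.18 in the mutants. The ratio was thus lower in every mutant, by 0.434 on the log2 scale, and Trf2-/- mouse 1 did not stand apart in it. Aif1 relative to Csf1r was also lower in every mutant, at -3.18, -3.34 and -3.04 in the WT mice against -3.59, -3.94 and -3.71, a difference of -0.559. Lyz2 relative to Csf1r was higher in every mutant, at -0.207, -0.174 and -0.177 against 1.05, -0.018 and 0.257, with most of the difference of 0.615 in mouse 1. For Cd68, Emr1, Cd163, Itgam and Cd14 the ratios of the groups overlapped, with differences between -0.099 (Cd163) and 0.307 (Emr1). Each of the 3 ratios without overlap reached p = 0.1 in a two-sided exact permutation test, the smallest that 3 against 3 mice can give, and 0.267 after Benjamini-Hochberg adjustment over the 8 ratios, so none of them passed. As shares of the summed level of the 9 markers, Mrc1 made up 52.2% to 53.0% in WT and 35.8% to 45.2% in the mutants, and Lyz2 14.3% to 14.6% in WT and 18.3% to 30.6% in the mutants.

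**Figure D3:**
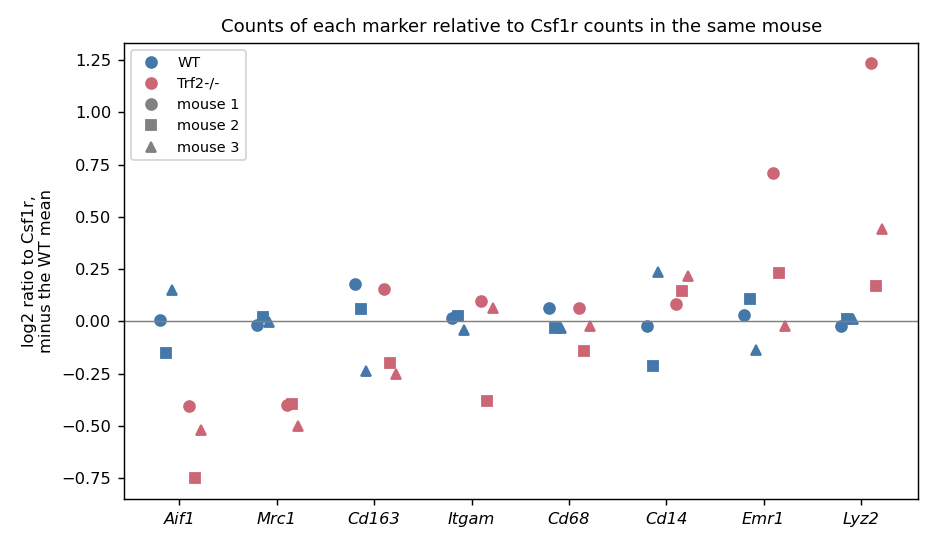
Log2 ratio of each marker's counts to Csf1r counts in the same mouse, minus the WT mean of that ratio (vertical axis), for 3 WT (blue) and 3 Trf2-/- mice (red). Aif1 and Mrc1 are below WT in all 3 mutants and Lyz2 is above WT in all 3, while the other 5 markers overlap. Csf1r itself was higher in all 3 mutants, so a gene that did not change would also lie below WT here.

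Beyond the markers, 16 phagocytic and Fc receptors were listed and 14 tested, of which 12 had a higher mean in the mutants, 4 rose and 1 fell. Fcgr3, a low-affinity IgG receptor, fell from 64.2 ± 1.05 CPM in WT to 21.3 ± 4.08 CPM in Trf2-/- testes (SD, n = 3 each; log2 fold change -1.58, edgeR adjusted p = 0.000176). It was lower in every mutant, passed in each of the 6 fits that left out a mouse, and moved against the macrophage markers. In counts it stood at 1854, 1698 and 1314 across the WT mice, against 593, 553 and 262 in the mutants. Per kilobase Fcgr3 was at 39.3 CPM in WT, above Lyz2, the highest marker, at 17.9. Which cells of the testis made it was not tested. Mertk, a receptor for apoptotic cells shared by macrophages and Sertoli cells, rose from 27.5 ± 2.15 to 35.1 ± 1.27 CPM (log2 fold change 0.349, adjusted p 0.00677) and also passed in all 6 such fits. Axl, of the same receptor family and the most abundant gene in the list, rose from 175.5 ± 3.06 to 198.5 ± 8.87 CPM (log2 fold change 0.178, adjusted p 0.0206), a call kept in 3 of the 6 fits. Both differ from the markers in that the 3 mutants were alike. Stab1, a scavenger receptor of macrophages and sinusoidal endothelium, rose from 31.1 ± 4.63 to 50.5 ± 16.9 CPM (log2 fold change 0.706, adjusted p 0.0312), and Tyrobp, the adaptor of myeloid activating receptors, from 4.13 ± 0.651 to 7.98 ± 3.77 CPM (log2 fold change 0.967, adjusted p 0.0376). Stab1 passed in 2 and Tyrobp in 1 of the 6 fits that left out a mouse, and neither kept its call without Trf2-/- mouse 1, where Stab1 was at a log2 fold change of 0.39 (adjusted p 0.0739) and Tyrobp at 0.515 (adjusted p 0.117).

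Over all the lists of macrophage pathways, 64 of 74 genes were tested, 52 had a higher mean in the mutants, 15 rose and 2 fell (median log2 fold change 0.293, against 0.037 over all genes tested). Of the 17 calls, 7 remained without Trf2-/- mouse 1, and 3 (Fcgr3, Mertk and Lamp2) passed in all 6 fits that left out a mouse. These lists were chosen with results of the same data in view and do not stand as independent evidence of a direction.

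The genes whose 6 values most resembled the markers were sought among 15111 other genes of at least 1 CPM, by the root mean square difference of their log2 deviations from the WT mean to the mean deviation of the 9 markers. The closest were Palmd (0.071), Itgb2 (0.071), F13a1 (0.084), Sepp1 (0.090) and Unc93b1 (0.094), each figure being that difference on the log2 scale over 6 mice. F13a1, the coagulation factor XIII A chain, had 32.2, 30.4 and 29.9 CPM across the WT mice, against 69.2, 36.7 and 36.0 CPM in the mutants. Unc93b1, which escorts endosomal Toll-like receptors, had 9.30, 8.66 and 8.20 CPM across the WT mice, against 19.4, 12.1 and 10.6 CPM in the mutants. Among these 5 genes, Unc93b1 passed the test (log2 fold change 0.70, edgeR adjusted p = 0.0308), and it did not without Trf2-/- mouse 1 (adjusted p 0.0594). They were picked for likeness to the markers, so their difference between the genotypes is a description.

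Markers of other cells moved with the macrophage markers in part. All 8 pan-leukocyte genes had a higher mean in the mutants (median log2 fold change 0.698), and edgeR called 0 of them, with 3 under an unadjusted p of 0.05 and 3 called by DESeq2. Their summed level was 28.6 to 30.9 CPM in WT and 80.4, 37.1 and 29.1 CPM in Trf2-/- mice 1 to 3, and the highest of them, Lcp1, was at 8.60 CPM in WT and 13.4 CPM in the mutants. Ptprc (CD45), the common leukocyte antigen, had 102, 107 and 74 counts across the WT mice, against 285, 122 and 65 in the mutants (log2 fold change 0.906, edgeR adjusted p = 0.0682). Trf2-/- mouse 1 was thus the highest mouse for leukocytes in general as well as for the macrophage markers. Neutrophil genes summed to 0.672 to 1.43 CPM in WT and to 6.75, 1.29 and 0.948 CPM in the mutants, so the first mutant again stood apart. In that mouse S100a8 had 27, S100a9 28 and Mpo 61 counts, against 0, 0 and 6 in Trf2-/- mouse 2 and 0, 0 and 5 in mouse 3. WT mouse 1 had 6, 10 and 7 counts of these genes. Camp did not follow this pattern, at 0.516, 0.643 and 0.569 CPM in Trf2-/- mice 1 to 3 and 0.336 to 0.613 CPM in WT. Of the 7 neutrophil genes found, Camp alone was abundant enough to be tested (log2 fold change 0.398, edgeR adjusted p = 0.393), and Ly6g was not analysed here.

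Monocyte and dendritic cell genes summed to 32.6 to 36.5 CPM in WT and 35.3 to 43.9 CPM in the mutants. Zbtb46, a transcription factor of dendritic cells that other cells also make, held most of that sum at 22.5 and 23.1 CPM. Of the 5 genes tested, 4 had a higher mean in the mutants and 1 a lower mean (median log2 fold change 0.055). Plac8, which is found in monocytes and other myeloid cells, was the gene of the list that rose (77, 54 and 68 counts in WT, 203, 143 and 47 in the mutants; log2 fold change 1.14, edgeR adjusted p = 0.0275), a call lost without Trf2-/- mouse 1 (log2 fold change 0.808, adjusted p 0.104) or 2 and without WT mouse 1 or 2. Flt3 and Ccr2 are named here after their values were seen, and neither passed the test. Flt3 was lower in every mutant than in every WT mouse (log2 fold change -0.312, edgeR adjusted p = 0.104). Ccr2 was at 1.46, 2.34 and 2.59 CPM across the WT mice, against 7.58, 2.70 and 2.09 CPM in the mutants (log2 fold change 1.01, edgeR adjusted p = 0.124). Mast cell genes summed to 1.49 to 2.26 CPM in WT and 1.83 to 4.56 CPM in the mutants. The 6 T cell genes were too scarce to be tested, with 3 of them at 3 counts or fewer in each mouse. Red blood cell genes, a measure of blood in the tissue, were at 65.6 to 114.9 CPM in WT and 57.6, 82.0 and 96.2 CPM in the mutants, and so were lowest in the mouse with the most macrophage marker RNA. The part that these other cells play in the levels of Lyz2, Itgam, Cd14 and Csf1r was not tested.

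Markers of the somatic cells of the testis were read in the same way. All 8 blood endothelial genes had a higher mean in the mutants and 3 rose: Cdh5, the endothelial cadherin (log2 fold change 0.454, edgeR adjusted p = 0.0115), Cd34 (log2 fold change 0.402, adjusted p 0.00402) and Eng (log2 fold change 0.311, adjusted p 0.0426). Cdh5 and Cd34 passed in all 6 fits that left out a mouse, whereas Eng passed in 1. In the lymphatic list Pdpn rose (log2 fold change 0.55, adjusted p 0.0367), a call lost without Trf2-/- mouse 1 (log2 fold change 0.518, adjusted p 0.0911) or 3 and without WT mouse 1 or 3, at log2 fold changes of 0.448 or more. Of the Sertoli cell genes, 5 of 5 tested had a higher mean and Clu, Cldn11 and Fshr rose, by log2 fold changes of 0.221, 0.191 and 0.422 (adjusted p 0.0260, 0.0158 and 0.0259). Hsd3b1, a steroid-making enzyme of Leydig cells, rose by 0.318 (adjusted p 0.0144), 1 of 6 Leydig genes tested, and Des rose by 0.478 (adjusted p 0.0187), 1 of 4 peritubular genes, in which Acta2 was the most abundant at 166.5 and 185.8 CPM. Without Trf2-/- mouse 1, Cldn11 kept its call, and the others lost theirs at log2 fold changes of 0.231 for Clu, 0.345 for Fshr, 0.227 for Hsd3b1, 0.518 for Pdpn, 0.278 for Eng and 0.42 for Des. Over all lists of other cell types 51 of 73 genes were tested, 11 passed the test, 10 of them higher in the mutants (median log2 fold change 0.311). In Trf2-/- mice 1 to 3 the list medians of log2 (CPM divided by the WT mean) were 0.167, 0.205 and 0.329 for Sertoli cells, 0.297, 0.102 and 0.222 for blood endothelium, 0.815, 0.411 and 0.458 for lymphatic endothelium, and 0.990, 0.366 and 0.232 for the macrophage markers. They were 0.400, 0.311 and -0.178 for Leydig cells and 0.304, 0.181 and 0.234 for peritubular cells. By these medians mutant 1 was the highest mutant in the endothelial, Leydig and peritubular lists too, and not in the Sertoli list. The Leydig order did not hold for the summed level, at 303.2, 325.6 and 184.6 CPM in Trf2-/- mice 1 to 3. That sum ranged from 181.2 to 359.6 CPM in WT, and the Leydig median of WT mouse 3 was 0.364. Whether the rise of the markers in Trf2-/- mice 2 and 3 differs from that of the somatic cell genes was not tested.

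**Figure D4:**
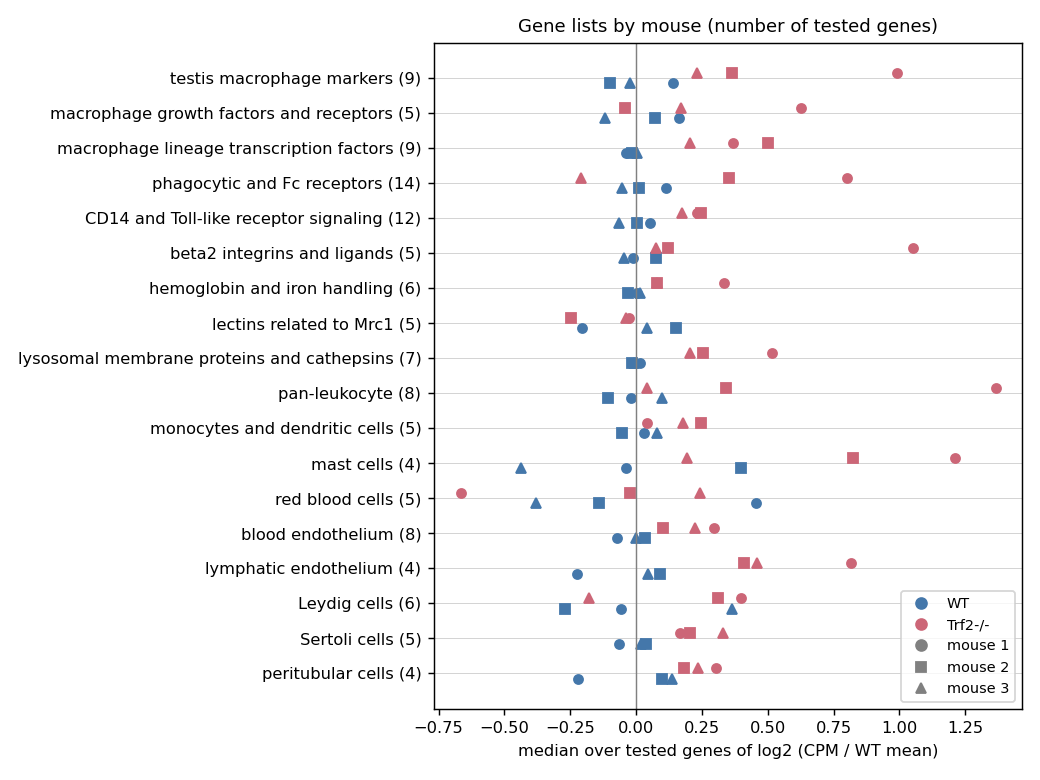
Median over the tested genes of each list of log2 (CPM divided by the WT mean) for every mouse (horizontal axis), with WT in blue, Trf2-/- in red, and the number of tested genes in brackets. For the 9 macrophage markers the mutants are at 0.990, 0.366 and 0.232, for 8 pan-leukocyte genes at 1.37, 0.343 and 0.040, and for 5 Sertoli cell genes at 0.167, 0.205 and 0.329.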

How the data were processed

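Testis RNA of 6 mice, 3 of each genotype, had been depleted of ribosomal RNA, prepared with a stranded kit and sequenced as 50-base single reads. Per the labels, the authors aligned reads with TopHat2 2.0.10 and Bowtie2 2.1.0 to mm9 and counted them with HTSeq 0.5.4p3, according to the submitters' processing notes. The strand setting and the annotation release are not given in the sources used here. The deposited raw counts per gene were used as they stand, and the authors' normalised columns and their own comparison were not used.

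Counts were tested in R 4.3.3 with edgeR 4.0.16 (TMM, filterByExpr, quasi-likelihood F test, Benjamini-Hochberg adjustment over 16924 genes), Trf2-/- against WT, with no covariate. The scripts were tested on simulated data. CPM came from edgeR, and log2 ratios to Csf1r used a pseudocount of 0.5. DESeq2 1.42.0, other scalings and filters, a robust fit, a replicate block and leaving out each mouse were tried as alternatives. Shared sequence was counted as identical 50-base windows in the transcripts of 2 genes. All tested markers were named. Of each list were named the genes that passed or, above 4, the 4 with the smallest p, and the most abundant gene, together with Csf1, Il34, Tlr4, Ly96, Itgb2, Lyz1, Emr4, Tyrobp, Ptprc and Spi1. The markers and lists were chosen with earlier results of these data known. Replicates were labelled only by number, the study calls them independent biological replicates, and no pair of libraries agreed within sampling noise. Results for some listed genes are not reported here.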

Additional observations from a re-analysis of the deposited data

How the results depend on the processing

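The 9 markers kept a positive median log2 fold change under each alternative tried, from 0.282 without Trf2-/- mouse 1 to 0.718 without Trf2-/- mouse 3. The number past the test was less stable. With library size as the only scaling, 6 markers passed and 2 of them by at least 2-fold, with 26 pathway genes and 20 genes of other cell types, and the median of all genes moved from 0.037 to 0.131. Of all 16924 genes 6958 then passed, against 5312 in the main fit, and 158 rose at least 2-fold, against 103. A robust fit called 1 marker and 0 by at least 2-fold, with 5355 of all genes called and 89 higher by at least 2-fold. At an adjusted p of 0.01 the counts were 0 markers, 0 by at least 2-fold, 4 pathway genes and 1 gene of other cell types, with 2815 of all genes. Without a filter 17 genes of other cell types passed, with 5515 of all 26743 genes. In edgeR, leaving out each mouse in turn gave 0 to 6 markers (0 without WT mouse 2 or 3, where 3 and 4 markers had an unadjusted p under 0.05; DESeq2 on all mice called 2), 0 to 2 by at least 2-fold, 6 to 28 pathway genes, 2 to 17 genes of other cell types and a log2 difference of the summed level of 0.207 to 0.697. Over all genes these fits called 3413 to 5235 of 17121 to 17327 tested, and 53 to 177 as higher by at least 2-fold. The sign turned for Aif1 (-0.282 to 0.183), Mrc1 (-0.07 to 0.326), Ly96 (-0.067 to 0.207), Fth1 (-0.05 to 0.13) and Zbtb46 (-0.051 to 0.122), and for the ratios to Csf1r of Cd68 (-0.08 to 0.023) and Itgam (-0.159 to 0.081); none of these had passed. The cause was not tested. No pairing by replicate number was seen: same-numbered mice deviated with correlations of -0.132, 0 and -0.119, and 0 of 6 mice correlated best with its own number. With 3 mice per genotype, these values cannot show whether mice shared a litter or batch, which the labels do not give. With the number as a replicate block, 4 markers, 17 pathway genes and 7 genes of other cell types passed, with 4580 of all genes. Cd14, Cd163 and Aif1 rested on 18 to 104 counts per mouse, which limits their precision.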
